A study of Mus musculus with 88 samples.

Results

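The enzymes of the purine nucleotide cycle and of purine breakdown were followed across 9 mouse tissues through 8 genes. They were the AMP deaminase genes Ampd1, Ampd2 and Ampd3, adenylosuccinate lyase (Adsl), adenosine deaminase (Ada), guanine deaminase (Gda), xanthine dehydrogenase (Xdh) and adenosine kinase (Adk). The genes were taken by symbol from the deposited annotation, and all 8 were found among its 24453 genes. Xdh, Adk, Gda and Ada were chosen by measured values of these same data, namely low p-values between the genotypes in single tissues. Their genotype differences are therefore given as a description with no test, while differences between tissues, which did not enter the choice, were tested in WT mice.

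In the purine nucleotide cycle AMP is deaminated to IMP with release of ammonia, and IMP is turned back into AMP through adenylosuccinate, with release of fumarate. The cycle is best known from working skeletal muscle, where AMP deaminase removes AMP as ATP is used. In the breakdown pathway adenosine and guanine are deaminated, and xanthine dehydrogenase oxidizes hypoxanthine and xanthine to urate, while adenosine kinase takes adenosine the other way, back to AMP.

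The series asked about M-cadherin in the formation of muscle before birth and in adult muscle. The 5 knockout mice carried a knockout of Cdh15 (KO), the gene of M-cadherin, through which myoblasts and satellite cells adhere to their neighbours. They were set against 5 wild-type mice (WT). All 10 were males of the strain 100% C57BL/6NTac, all had been fasted for 18 h, and they were 65 to 85 days old in the KO and 65 to 83 days old in the WT group. Polyadenylated RNA came from the soleus, extensor digitorum longus (EDL), gastrocnemius and tibialis muscles and from heart, kidney, liver, lung and spleen, with 5 KO and 5 WT libraries a tissue but 5 KO and 4 WT libraries for kidney and for spleen. The labels do not say which part of Cdh15 the knockout allele lacks or whether it is lost in every cell.

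The 88 libraries held 8.21 to 25.1 M counts with a median of 19.02 M. Cdh15 stood at 0.372 to 1.43 RPKM (reads per kilobase of exon, relative to the library total) in the KO and at 4.11 to 8.11 RPKM in the WT muscle libraries, so the labels and the targeted gene went together in all 40. The summed level of the defining markers of each labelled tissue (hepatocyte, kidney tubule, lung epithelium, lymphocyte for spleen, cardiomyocyte, and fast fibre for the 4 muscles) was higher in every library of its own tissue than in any library of another. The soleus library of KO mouse 3805666 stood apart, with 14.9 RPKM of the fast myosin gene Myh4, against 4530 to 6360 RPKM in the other 4 KO and 4690 to 10900 RPKM in the 5 WT soleus libraries. It had the highest slow fibre marker sum in soleus, 18990 RPKM. By these markers WT soleus was mostly fast, with Myh4 at a mean of 8562 RPKM beside 10150 to 15260 RPKM in the other WT muscles. Its fast fibre markers summed to a median of 55940 RPKM, beside 58170 to 74140 RPKM there. Slow fibre markers summed to a median of 4904 RPKM, beside 110.2 to 212.1 RPKM. The cause was not tested. Members' fold changes in soleus are given with and without the library of mouse 3805666, and so are the other soleus values that include KO mice. In bulk tissue, fewer cells of a type and less RNA per cell cannot be told apart.

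On mm10, the build of the deposited annotation, the genes of the cycle are Ampd1 (chr3:103074014-103099720, plus strand, 16 exons), Ampd2 (chr3:108074062-108086666, minus strand, 19 exons), Ampd3 (chr7:110772604-110812408, plus strand, 15 exons) and Adsl (chr15:80948490-80970947, plus strand, 13 exons). Those of breakdown and salvage are Xdh (chr17:73883895-73950196, minus strand, 36 exons), Ada (chr2:163726571-163750239, minus strand, 12 exons), Adk (chr14:21076152-21448569, plus strand, 11 exons) and Gda (chr19:21391307-21472661, minus strand, 14 exons). RefSeq promoter sequences on GRCm38.p6 (250 bases before to 50 after a transcript start) were matched by symbol for 6 of the 8 genes, with Ampd1 and Xdh unmatched, which gave 10 promoters. Those of Ampd2 and Ampd3 are shown because these AMP deaminases took each other's place between liver and heart. Those of Adk and Gda are shown because their means were higher in KO than in WT soleus, a difference given without a test. Each is printed 5′ to 3′ on the strand of its gene, and capitals mark the GC box GGGCGG, or CCGCCC where it lies on the other strand.
Ampd2, chr3:108085353-108085652, minus strand: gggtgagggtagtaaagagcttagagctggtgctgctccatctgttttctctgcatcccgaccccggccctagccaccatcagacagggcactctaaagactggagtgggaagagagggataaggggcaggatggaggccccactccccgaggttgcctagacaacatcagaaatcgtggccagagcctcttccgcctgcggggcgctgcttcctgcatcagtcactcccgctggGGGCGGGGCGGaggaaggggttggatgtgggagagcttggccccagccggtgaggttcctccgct
Ampd3, chr7:110772354-110772653, plus strand: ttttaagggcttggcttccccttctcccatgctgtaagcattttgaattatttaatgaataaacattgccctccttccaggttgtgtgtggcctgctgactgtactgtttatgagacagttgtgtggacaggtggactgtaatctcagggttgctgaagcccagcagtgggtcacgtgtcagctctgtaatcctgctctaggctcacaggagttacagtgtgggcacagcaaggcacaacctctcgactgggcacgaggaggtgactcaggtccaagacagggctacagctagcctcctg
Adk, chr14:21075902-21076201, plus strand: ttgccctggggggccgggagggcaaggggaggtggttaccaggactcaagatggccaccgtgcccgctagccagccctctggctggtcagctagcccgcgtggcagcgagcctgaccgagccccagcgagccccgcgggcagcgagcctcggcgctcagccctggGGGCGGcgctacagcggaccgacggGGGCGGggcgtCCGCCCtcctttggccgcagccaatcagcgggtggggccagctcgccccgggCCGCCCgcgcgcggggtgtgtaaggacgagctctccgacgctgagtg
Gda, chr19:21472612-21472911, minus strand: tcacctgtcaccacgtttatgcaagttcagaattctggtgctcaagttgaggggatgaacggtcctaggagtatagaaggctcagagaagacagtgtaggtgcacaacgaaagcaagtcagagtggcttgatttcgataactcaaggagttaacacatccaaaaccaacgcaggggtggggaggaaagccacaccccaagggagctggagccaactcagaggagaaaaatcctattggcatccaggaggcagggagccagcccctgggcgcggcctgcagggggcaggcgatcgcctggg

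The sequences differed in composition. The Adk promoter held 4 GC boxes and 33 CG dinucleotides, and the Ampd2 promoter 2 GC boxes, which overlap by their last and first base, and 12 CG dinucleotides. The Ampd3 and Gda promoters shown held no GC box, with 3 and 9 CG dinucleotides. Of the Ampd3 promoters not shown, which also lack a GC box, the first held 22 and the other 3 CG dinucleotides. Over all 32851 promoters of the table the median was 7 CG dinucleotides, and 35.7% held a GC box on either strand. TATAAA (or TTTATA) was in none of the 10 promoters of these genes and in 13.6% of all promoters. CCAAT (or ATTGG) was found in 1 copy in the Adk and the Gda promoter shown and in neither AMP deaminase promoter shown, against 37.4% of all promoters with a copy. Each Ampd3 promoter not shown held 1 copy. The Ampd2 start used here lies inside the annotated gene, and the other starts shown are the annotated ones. Ampd3 has 3, Adk 2 and Ampd2 2 promoters in the table, and the data do not tell which start a read came from.

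Ampd1, the AMP deaminase of skeletal muscle, was close to confined to the skeletal muscles by level. In WT mice it averaged 363.7 ± 56.9 RPKM in EDL, 351.4 ± 28.8 in gastrocnemius, 247.7 ± 58.5 in soleus and 245.6 ± 34.1 RPKM in tibialis (SD, n = 5 each). EDL and gastrocnemius overlapped, as did soleus and tibialis, and each pair stood apart from the next. Spleen followed at 0.929 ± 0.287 RPKM (SD, n = 4) and lung at 0.340 ± 0.0749 RPKM (SD, n = 5). Heart muscle had almost none of it: the 5 KO heart libraries held 0 to 2 reads each and the 5 WT heart libraries 0 or 1. KO kidneys held 0 to 3 reads, WT kidneys 0 to 2. WT livers held 0 in all 5 libraries, so that the lowest muscle mean was at least 2028-fold higher, taking 3 reads in the shallowest WT liver library as the limit that 0 reads allow. KO livers held 0 or 1 read each. Ampd1 was higher in the skeletal muscles than in the other 5 tissues of WT mice (quasi-likelihood test of edgeR, adjusted p = 2.67e-43, by the method of Benjamini and Hochberg). No fitted fold is given for this contrast, since tissues at 0 make it depend on the prior count. Within WT muscle, Ampd1 was lower in soleus than in the mean of the 3 fast muscles (EDL, gastrocnemius and tibialis) by a log2 difference of -0.46 (SE 0.12, edgeR adjusted p = 0.00597), a call that was lost without WT mouse 3793543 (-0.36, adjusted p = 0.0573). The difference lay with EDL and gastrocnemius, since soleus and tibialis were at about the same level.

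Fold changes between tissues depend on how libraries are scaled, and those given were fitted with composition factors. These fits held no term for the mouse. The tissues came from the same animals, so the p-values between tissues treat libraries of a mouse as independent. Scaling to library totals alone moved the median log2 difference of all genes by -0.79 for the skeletal muscles against the other 5 tissues, 0.11 for soleus against the 3 fast muscles and 0.36 for heart against the skeletal muscles. Against the other 8 tissues it moved the median by -0.45 for liver, 0.31 for kidney, 1.18 for lung and 1.01 for spleen. The value of a member with library totals is given beside its fold change. For Ampd1 in soleus it was -0.35 (edgeR adjusted p = 0.0233).

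**Figure D1:**
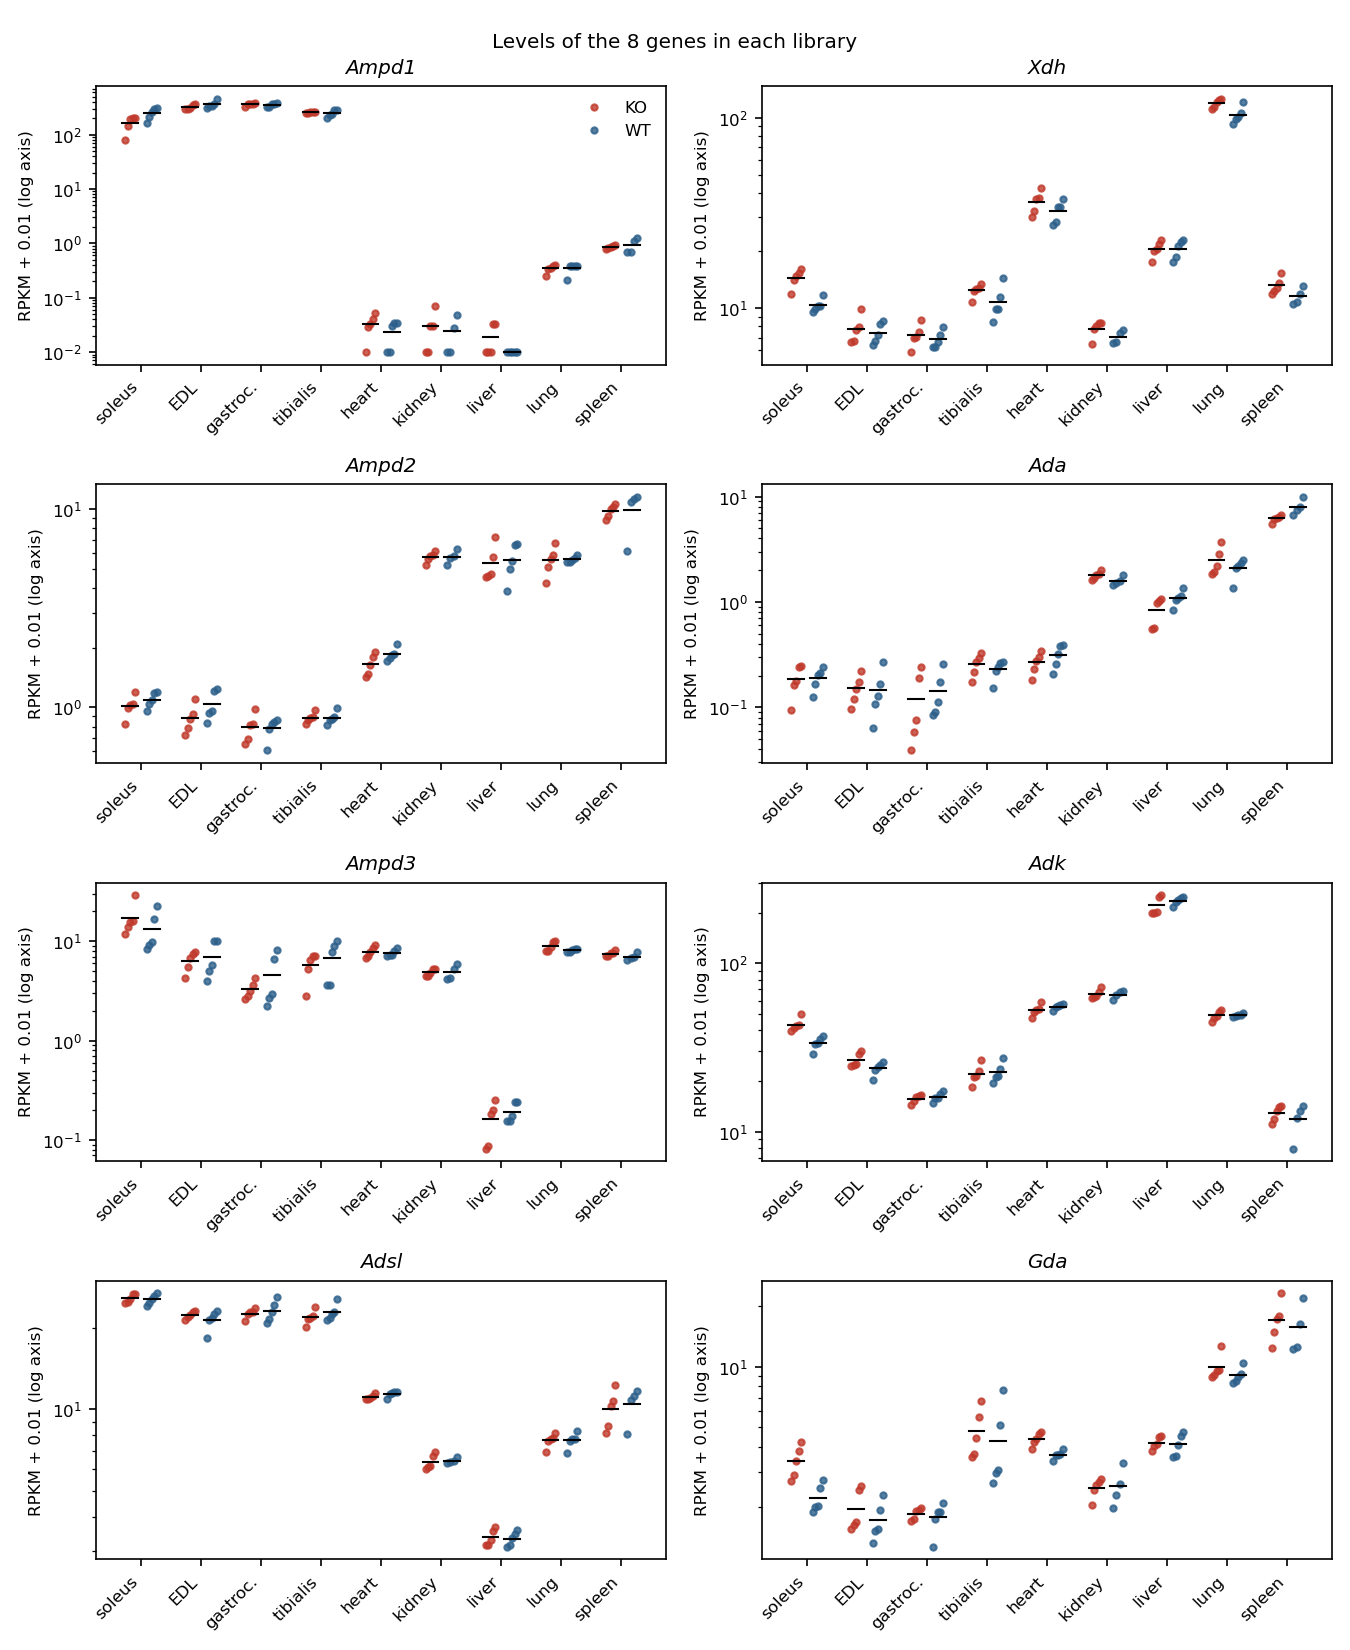
RPKM plus 0.01 on a log axis in each library for the 8 genes, by tissue, KO (red) left of WT (blue); points are libraries and bars are group means. Ampd1 lies above 80 RPKM in all 40 muscle libraries and below 1.3 RPKM in all other libraries, Adk peaks in liver, Xdh in lung, and Ada and Gda in spleen.

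Ampd2, the AMP deaminase first described from liver, had the opposite distribution. In WT mice it was lowest in the muscles, from 0.772 ± 0.103 RPKM in gastrocnemius to 1.09 ± 0.102 RPKM in soleus (SD, n = 5 each), and each muscle overlapped with the next in the order. Heart stood apart from both sides at 1.84 ± 0.139 RPKM (SD, n = 5). Kidney (5.72 ± 0.436, n = 4), lung (5.56 ± 0.197, n = 5) and liver (5.50 ± 1.16 RPKM, n = 5) were at about the same level and overlapped. Spleen was highest at 9.91 ± 2.51 RPKM (SD, n = 4), but its lowest library, at 6.16 RPKM, overlapped with kidney. Relative to the other 5 tissues, Ampd2 was lower in the skeletal muscles by a log2 difference of -1.64 (SE 0.06, edgeR adjusted p = 2.30e-26; -2.43 with library totals). It was higher in heart than in the skeletal muscles by 0.62 (SE 0.10, edgeR adjusted p = 4.74e-07; 0.98 with library totals).

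Ampd3, the AMP deaminase of red blood cells that is also found in many other tissues, was detected in every tissue and was lowest in liver. WT liver had 0.184 ± 0.0435 RPKM (SD, n = 5), below every library of every other tissue. Soleus was highest at 13.4 ± 6.16 RPKM (SD, n = 5), and the order from soleus down through lung (8.11 ± 0.300), heart (7.61 ± 0.641), spleen (6.99 ± 0.619, n = 4), EDL (6.96 ± 2.86), tibialis (6.79 ± 3.01), kidney (4.89 ± 0.810, n = 4) and gastrocnemius (4.51 ± 2.66 RPKM, n = 5 where not given) had each neighbour overlapping the next. In liver it was lower than in the other 8 tissues by a log2 difference of -4.85 (SE 0.42, edgeR adjusted p = 6.17e-13; -5.29 with library totals). In soleus it was higher than in the 3 fast muscles, by 1.62 in KO mice (SE 0.14, edgeR adjusted p = 2.33e-12) and by 1.03 in WT mice (SE 0.23, edgeR adjusted p = 0.00125; 1.15 with library totals). Without KO mouse 3805666 the value in KO mice was 1.37 (SE 0.15, edgeR adjusted p = 6.73e-09). Erythroid markers summed to 460.5 to 904 RPKM in KO (to 604.3 RPKM without KO mouse 3805666) and 385.2 to 633.7 RPKM in WT soleus, against at most 768.7 RPKM in KO and 456.1 RPKM in WT libraries of the 3 fast muscles. Their part in the level of Ampd3 was not tested.

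As shares of the summed RPKM of Ampd1, Ampd2 and Ampd3, the AMP deaminase transcripts differed in make-up between tissues. Ampd1 made up 97.8% in KO and 97.8% in WT EDL, 98.9% in KO and 98.5% in WT gastrocnemius, and 97.5% in KO and 97.0% in WT tibialis. Soleus had less of it, 88.5% in KO (range 73.0 to 93.0%; 92.4%, range 92.0 to 93.0%, without mouse 3805666) and 93.9% in WT mice (87.6 to 96.8%). In heart Ampd3 took the largest share, 82.4% in KO and 80.4% in WT mice, with nearly all the rest from Ampd2. Liver was almost wholly Ampd2, 97.0% in KO and 96.6% in WT mice. Kidney was mixed, with Ampd2 at 54.1% in KO and 54.0% in WT mice. Lung leaned to Ampd3, at 60.3% in KO and 57.9% in WT mice, and spleen to Ampd2, at 53.9% in KO and 54.9% in WT mice. Spleen also held the largest Ampd1 share outside muscle, 4.72% in KO (range 4.56 to 4.83%) and 5.33% in WT mice (3.70 to 7.78%). The sum was lower outside skeletal muscle, at 183.8 RPKM in KO (201.9 RPKM without mouse 3805666) and 262.1 RPKM in WT soleus but 9.51 RPKM in KO and 9.46 RPKM in WT heart.

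**Figure D2:**
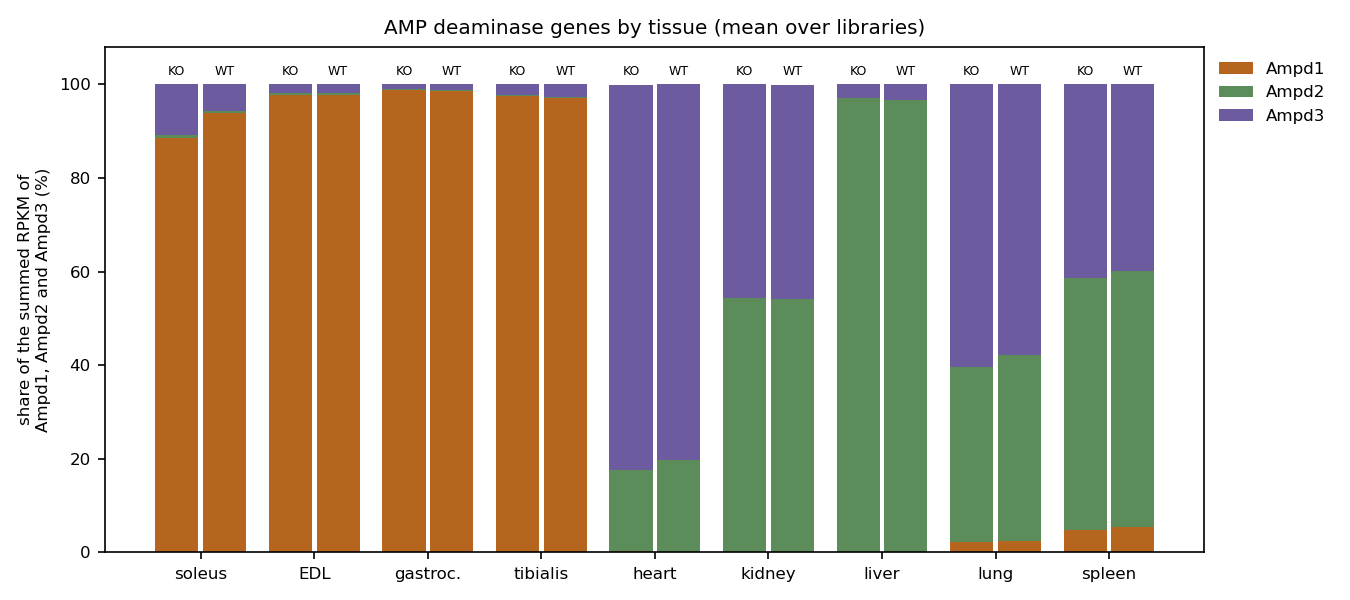
Mean share (%) of Ampd1 (orange), Ampd2 (green) and Ampd3 (purple) in the summed RPKM of the 3 AMP deaminase genes, by tissue, with the KO bar left of the WT bar. Ampd1 fills the bars of the skeletal muscles, Ampd3 most of the heart bars (82.4% in KO, 80.4% in WT) and Ampd2 most of the liver bars (97.0% in KO, 96.6% in WT).

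Adsl, which cleaves adenylosuccinate to AMP in the cycle and also serves de novo purine synthesis, was high in all 4 muscles. WT soleus averaged 25.5 ± 1.09 RPKM, gastrocnemius 23.1 ± 2.10, tibialis 22.8 ± 1.70 and EDL 21.4 ± 1.88 RPKM (SD, n = 5 each), all overlapping in sequence and all above every library of heart. Heart (11.4 ± 0.280, n = 5) overlapped with spleen (10.4 ± 1.60, n = 4) and spleen with lung (7.66 ± 0.505, n = 5), while kidney (6.44 ± 0.159, n = 4) and liver (3.31 ± 0.200 RPKM, n = 5) each stood apart. Soleus was at 7.70 times the level of liver, the smallest spread over tissues among the 8 genes. Adsl was higher in the skeletal muscles by a log2 difference of 2.47 (SE 0.03, edgeR adjusted p = 3.24e-43; 1.68 with library totals). Heart was lower than the skeletal muscles, at -1.38 (SE 0.06, edgeR adjusted p = 2.44e-24; -1.02 with library totals).

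The deposited RPKM of Adsl cannot be read this way. Dividing the deposited counts by the deposited RPKM gives the exon length the authors' values imply, and for Adsl it ran from 1848 to 3712 bases between libraries, against 3712 bases in the deposited annotation. It was under 2500 bases in 29 of 88 libraries, among them 5 of 10 soleus and 7 of 10 EDL libraries, but in none from heart, kidney or liver. In soleus the short length was used for 1 of 5 KO and 4 of 5 WT libraries. The deposited soleus values accordingly lay at 24.7 to 26.7 RPKM in 4 KO libraries and 1 WT library and at 46.2 to 51.8 RPKM in the other 5. The same ratio varied by more than 1.5 times in 551 of 14143 genes (3.90%). For this reason every RPKM given here was computed from the deposited counts and the annotated length. Of the other members the implied length of Adk moved most with tissue, at 1698 to 1715 bases in liver against 1730 to 1825 bases elsewhere.

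**Figure D3:**
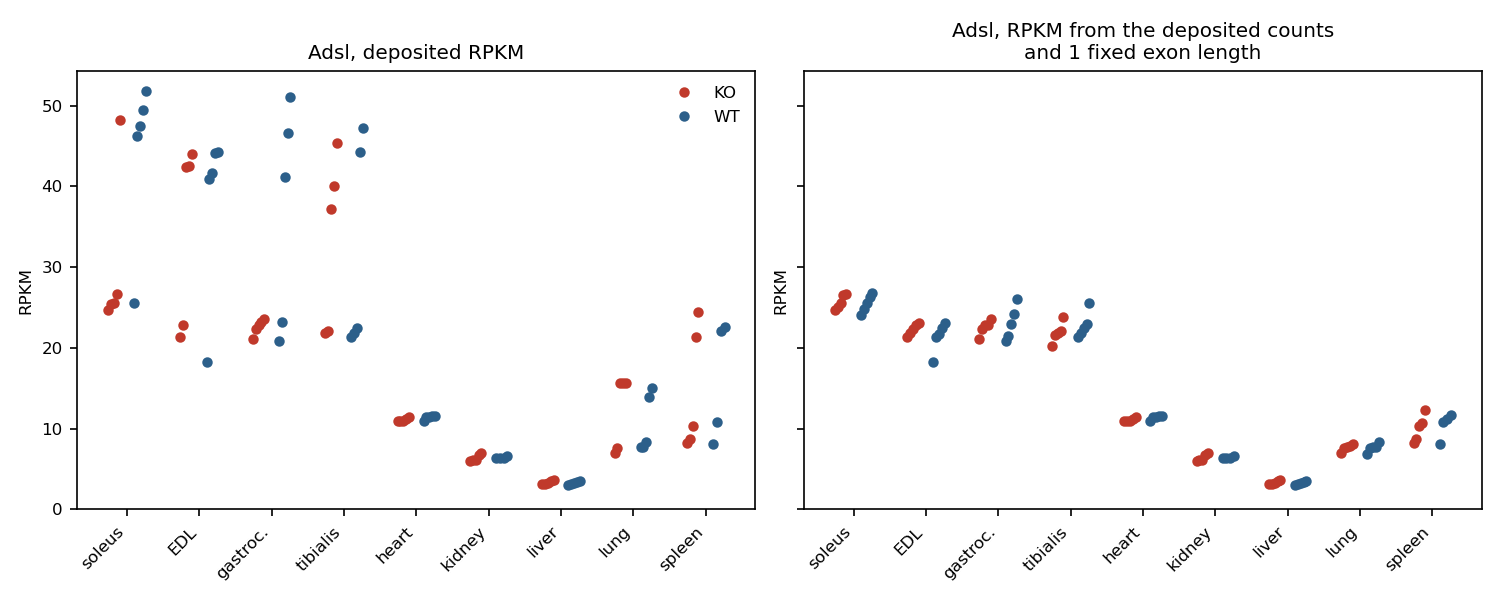
Adsl in each library as deposited RPKM (left panel) and as RPKM from the deposited counts and 1 fixed exon length (right panel), by tissue, KO (red) left of WT (blue). The deposited values of soleus split between 24.7 to 26.7 and 46.2 to 51.8 RPKM within both genotypes, and the values at fixed length run from 24.7 to 26.7 RPKM in KO and from 24.1 to 26.8 RPKM in WT soleus.

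Ada, which turns adenosine and deoxyadenosine into inosine and deoxyinosine and whose loss causes immune deficiency in humans, was mainly a spleen transcript. WT spleen averaged 7.98 ± 1.40 RPKM (SD, n = 4), apart from lung at 2.08 ± 0.433 RPKM (n = 5). Lung overlapped with kidney (1.57 ± 0.153, n = 4), and liver followed apart at 1.09 ± 0.186 RPKM (n = 5). Heart (0.301 ± 0.0784 RPKM) and the 4 muscles (0.135 to 0.219 RPKM) were lowest and overlapped in sequence. The muscle libraries held few reads of it, and Ada passed the filter on low counts in kidney, liver, lung and spleen but in no muscle and not in heart. Relative to the other 8 tissues, Ada was higher in spleen by a log2 difference of 3.26 (SE 0.13, edgeR adjusted p = 4.45e-26; 4.28 with library totals).

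Gda, which turns guanine into xanthine, was also highest in spleen, at 15.7 ± 4.48 RPKM (SD, n = 4), with lung next and apart at 9.04 ± 0.845 RPKM (SD, n = 5). Tibialis (4.28 ± 2.12), liver (4.09 ± 0.539) and heart (3.63 ± 0.175 RPKM, n = 5 each) overlapped. Kidney (2.54 ± 0.575, n = 4), soleus (2.22 ± 0.362), gastrocnemius (1.77 ± 0.314) and EDL (1.72 ± 0.396 RPKM, n = 5 each) overlapped in sequence below liver and heart. Kidney and soleus reached into the WT range of tibialis. Tibialis was the most uneven, at 3.53 to 6.76 RPKM in KO and 2.63 to 7.64 RPKM in WT mice. Macrophage markers were uneven there too, summing to 76.2 to 189.8 RPKM in KO and 54.8 to 241.5 RPKM in WT tibialis, and their part in the Gda level was not tested. In spleen Gda was higher than in the other 8 tissues by a log2 difference of 1.30 (SE 0.14, edgeR adjusted p = 4.88e-11; 2.32 with library totals).

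Xdh, the enzyme that makes urate, peaked in lung. WT lungs held 92.4, 99.1, 101, 106 and 121 RPKM, a mean of 104 ± 10.7 RPKM (SD, n = 5). Heart (32.3 ± 4.34) and liver (20.5 ± 2.32 RPKM, n = 5 each) stood apart below it and from each other. Spleen (11.6 ± 1.17, n = 4), tibialis (10.8 ± 2.25) and soleus (10.4 ± 0.816 RPKM) overlapped in sequence, as did EDL (7.40 ± 0.949), kidney (7.07 ± 0.535, n = 4) and gastrocnemius (6.84 ± 0.748 RPKM). Lung exceeded the other 8 tissues by a log2 difference of 1.99 (SE 0.06, edgeR adjusted p = 8.99e-29; 3.18 with library totals). Liver exceeded them by 0.99 (SE 0.07, edgeR adjusted p = 1.62e-16; 0.54 with library totals). Heart exceeded the skeletal muscles by 1.54 (SE 0.07, edgeR adjusted p = 3.35e-22; 1.90 with library totals). In soleus of WT mice Xdh passed the threshold against the 3 fast muscles only narrowly, by 0.23 (SE 0.08, edgeR adjusted p = 0.0490; 0.34 with library totals). That call was lost in 4 of 5 fits without a WT mouse (0.17 to 0.25), with DESeq2 size factors (0.22) and with no filter on low counts (0.23).

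Adk, which phosphorylates adenosine to AMP, was a liver transcript first. WT livers held 216, 230, 238, 246 and 249 RPKM, a mean of 235.8 ± 13.4 RPKM (SD, n = 5). Kidney (65.2 ± 3.69, n = 4), heart (55.2 ± 2.05), lung (49.2 ± 0.957) and soleus (33.6 ± 3.13 RPKM, n = 5 each) followed, each apart from the next. EDL (23.8 ± 2.14) and tibialis (22.5 ± 3.09) overlapped, and gastrocnemius (16.1 ± 0.968 RPKM, n = 5 each) and spleen (11.9 ± 2.78 RPKM, n = 4) were lowest and apart from each other. Liver exceeded the other 8 tissues by a log2 difference of 3.44 (SE 0.05, edgeR adjusted p = 9.44e-44; 2.99 with library totals). Soleus exceeded the 3 fast muscles by 0.60 (SE 0.06, edgeR adjusted p = 6.85e-10; 0.71 with library totals). Lung was lower than the other 8 tissues by -0.74 (SE 0.06) with composition factors but higher by 0.44 with library totals (edgeR adjusted p = 5.79e-08).

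Counted over the WT mice, 3 of the 8 genes were called higher in the skeletal muscles than in the other 5 tissues (Ampd1, Ampd3 and Adsl) and 5 lower, where 84.4% of all 16842 genes tested were called, 40% higher and 44.4% lower. For Ampd3 the low level in liver is part of that contrast, since its muscle levels overlapped with those of lung, heart, spleen and kidney. The count of members is near the background, and the sign and size of each difference carry the description. In heart against skeletal muscle 3 were called higher (Xdh, Adk and Ampd2) and 2 lower (Ampd1 and Adsl), beside 73% of all genes, 39% higher and 34% lower. Liver had 5 called higher (Adk, Ampd2, Ada, Xdh and Gda) and 3 lower (Ampd1, Ampd3 and Adsl), beside 78.7%, 36.4% higher and 42.3% lower. Soleus against the 3 fast muscles had 3 called higher (Ampd3, Adk and Xdh) and 1 lower (Ampd1), beside 18.1% of all genes, 10.5% higher and 7.55% lower. Kidney had 3 higher (Ampd2, Ada and Adk) and 3 lower (Adsl, Xdh and Gda), beside 74.5%, 40.2% higher and 34.3% lower. Lung had 3 higher (Xdh, Ada and Ampd2) and 2 lower (Adsl and Adk), beside 81.5%, 43% higher and 38.5% lower. Spleen had 3 higher (Ada, Gda and Ampd2) and 3 lower (Adk, Xdh and Adsl), beside 79.7%, 41.5% higher and 38.2% lower. These splits hold for composition factors. With library totals the genes called higher were 3379 of 14648 in the skeletal muscles, 2994 of 3412 in soleus, 9137 of 12668 in heart, 4289 of 13750 in liver, 8666 of 12446 in kidney, 13164 of 14893 in lung and 10939 of 13979 in spleen. Of the members, Adk (0.44) and Ampd3 (0.89) were then called higher in lung, Gda was too (1.42), Ampd3 was called higher in spleen (0.65), and Gda was no longer called in liver (0.14, edgeR adjusted p = 0.404). Adsl (0.18, edgeR adjusted p = 0.0204) was called higher in soleus, and Gda (0.65) and Ada (0.87) were called higher in heart. Ada held only 6 to 14 reads in the WT heart libraries and 2 to 10 reads in the WT muscle libraries. No usable fit of Ampd1 was had for kidney, lung and spleen, where its SE was 2256 or more on the log2 scale. WT liver, at 0, is among the tissues they were set against, but also among those the skeletal muscles were set against. Why only the former failed was not tested.

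The KO mice, which are other animals, gave the same directions in these contrasts for all 8 genes, except Ada (-0.07 in KO and 0.06 in WT mice) and Gda (0.21 in KO and -0.19 in WT mice) in soleus against the fast muscles. Neither was called in WT mice. For Xdh, Adk, Gda and Ada both the KO and the WT values entered the choice. No test is given for them in KO mice, and their WT tests carry that limit. Ampd1 in kidney, lung and spleen was fitted only in KO mice. Gda, which was not called in WT mice in heart (0.29) or lung (0.24), was at 0.31 in heart and 0.21 in lung in KO mice. Without KO mouse 3805666 the KO soleus values were -0.26 for Ada and 0.21 for Gda. The order of tissues depends on the scale. With CPM, which leaves out gene length, on composition factors in place of RPKM, the highest tissue was gastrocnemius for Ampd1 and Adsl and liver for Ampd2, and the lowest was lung for Adsl, kidney for Xdh and Gda and EDL for Ada. The other highest and lowest tissues were as given above.

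Other genes of purine metabolism were followed from lists of pathway members. In the purine nucleotide cycle list (6 genes), 4 were called higher in the skeletal muscles and 2 lower, beside 40% of all genes higher and 44.4% lower, with a median log2 difference of 2.21 beside -0.16 over all genes. Adssl1, the muscle adenylosuccinate synthetase that precedes Adsl in the cycle, averaged 43.9 RPKM in heart and 343.7 RPKM in the skeletal muscles, a log2 difference of -3.33 (SE 0.10, edgeR adjusted p = 3.78e-30). Heart thus had lower levels of Ampd1, Adssl1 and Adsl than skeletal muscle. Of the 17 breakdown genes 16 were tested. No count of calls in liver is given for them, since Urad passed the filter on low counts through liver alone. The urate oxidase Uox averaged 668 RPKM in liver and 0.136 RPKM over the other tissues, and Urad, which acts after it, 21.03 RPKM in liver and 0.00157 RPKM elsewhere. Xdh needs the molybdenum cofactor. The list for it held 5 genes of cofactor synthesis and sulfite oxidase, Suox, which also uses it, and all 6 were called higher in liver (median 2.42, beside 36.4% of all genes called higher) and in kidney (median 0.63, beside 40.2%). The list did not follow Xdh over the tissues. Xdh was called lower in kidney (-1.49). In lung, where Xdh peaked, 0 of the 6 were called higher and 5 lower (median -0.61, beside 38.5% of all genes lower). In heart against the skeletal muscles 1 was called higher and 5 lower (median -1.10, beside 34% lower). Spleen also had 1 higher and 5 lower (median -1.84, beside 38.2% lower).

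Among salvage genes, 7 of 10 were called higher in liver and 2 lower, beside 36.4% of all genes higher and 42.3% lower. In the skeletal muscles 1 was called higher and 8 lower, beside 40% higher and 44.4% lower. That 1 was Ak1, the adenylate kinase that makes AMP and ATP from ADP, which averaged 374.2 RPKM in the skeletal muscles and 34.7 RPKM in the other 5 tissues (log2 difference 6.81, SE 0.06, edgeR adjusted p = 4.44e-50). Most of the second mean came from heart at 150.2 RPKM, while liver held 0.133 RPKM. The fitted difference averages log values over tissues, so it is larger than the ratio of the printed means. From the breakdown list, Nt5c1a, a cytosolic nucleotidase that takes AMP to adenosine, averaged 5.84 RPKM in the muscles and 1.104 RPKM in the other tissues, nearly all of the second value from heart at 5.37 RPKM. Aox1, a molybdenum enzyme related to Xdh, averaged 11.95 RPKM in soleus and 6.57 RPKM in the 3 fast muscles (log2 difference 0.78, SE 0.08, edgeR adjusted p = 4.33e-10). Of the urate transport genes, the organic anion transporter Slc22a6 averaged 248.4 RPKM in kidney and 0.0107 RPKM elsewhere. No count of calls is given for that list, since some of its genes passed the filter on low counts through kidney alone. In spleen the deoxycytidine kinase Dck averaged 22.7 RPKM against 1.09 RPKM elsewhere, and the nucleoside transporter Slc28a2 34.6 RPKM against 3.04 RPKM.

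The genes whose levels followed each member most closely over the 9 WT tissue means were found by Pearson's r of log2(CPM + 0.5) among 16309 genes. The 9 points share libraries, composition and mice, so r is a description. Ampd1 was followed by the fast troponin gene Tnni2 (r = 0.998), the muscle calcium release channel Ryr1 (0.998) and the fast myosin light chain gene Mylpf (0.997). Adsl was followed by Dnajc27, Cul5 (0.986 each) and Htatsf1 (0.983), and Ampd3 by Naa20, Polr2c (0.966 each) and Slc41a1 (0.964). Ampd2 was followed by Nubp2, Alkbh2 and Invs (0.996 each). Of the breakdown genes, Gda was followed by the adaptor gene Tyrobp (0.969) and the cytokine gene Il1b (0.966), both known from blood-derived cells. Ada was followed by Ppcdc, the interleukin receptor Il17ra (0.998 each) and Ikbkb (0.997), Xdh by Meig1 (0.973), Kank2 (0.962) and Gpr146 (0.960), and Adk by Atxn2 (0.977), Dnajc25 (0.974) and Eci2 (0.970). Among the members themselves Ampd1 and Adsl had r = 0.894 and Ampd2 and Ada 0.940, while Ampd1 and Ampd2 had -0.837.

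Between the genotypes, none of Ampd1, Ampd2, Ampd3 and Adsl, the members that were not chosen by their p-values, was called by edgeR in any tissue where it was tested. All 8 genes passed the filter on low counts in lung and spleen, 7 in the 4 muscles, kidney and liver, and 6 in heart. Over all genes the edgeR test called 1 gene, Cdh15, in each muscle, which is 0.00771% in soleus, 0.00777% in EDL, 0.00792% in gastrocnemius and 0.0081% in tibialis, and 0% in heart, kidney, liver, lung and spleen. At an unadjusted p under 0.05 it had 2235 genes in soleus, 590 in EDL and 118 to 478 in the other 7 tissues. DESeq2 called 165 genes in soleus (111 without KO mouse 3805666) and 0 to 4 in each of the other tissues, and Ampd1, Ampd2, Ampd3 and Adsl were in none of these sets.

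**Figure D4:**
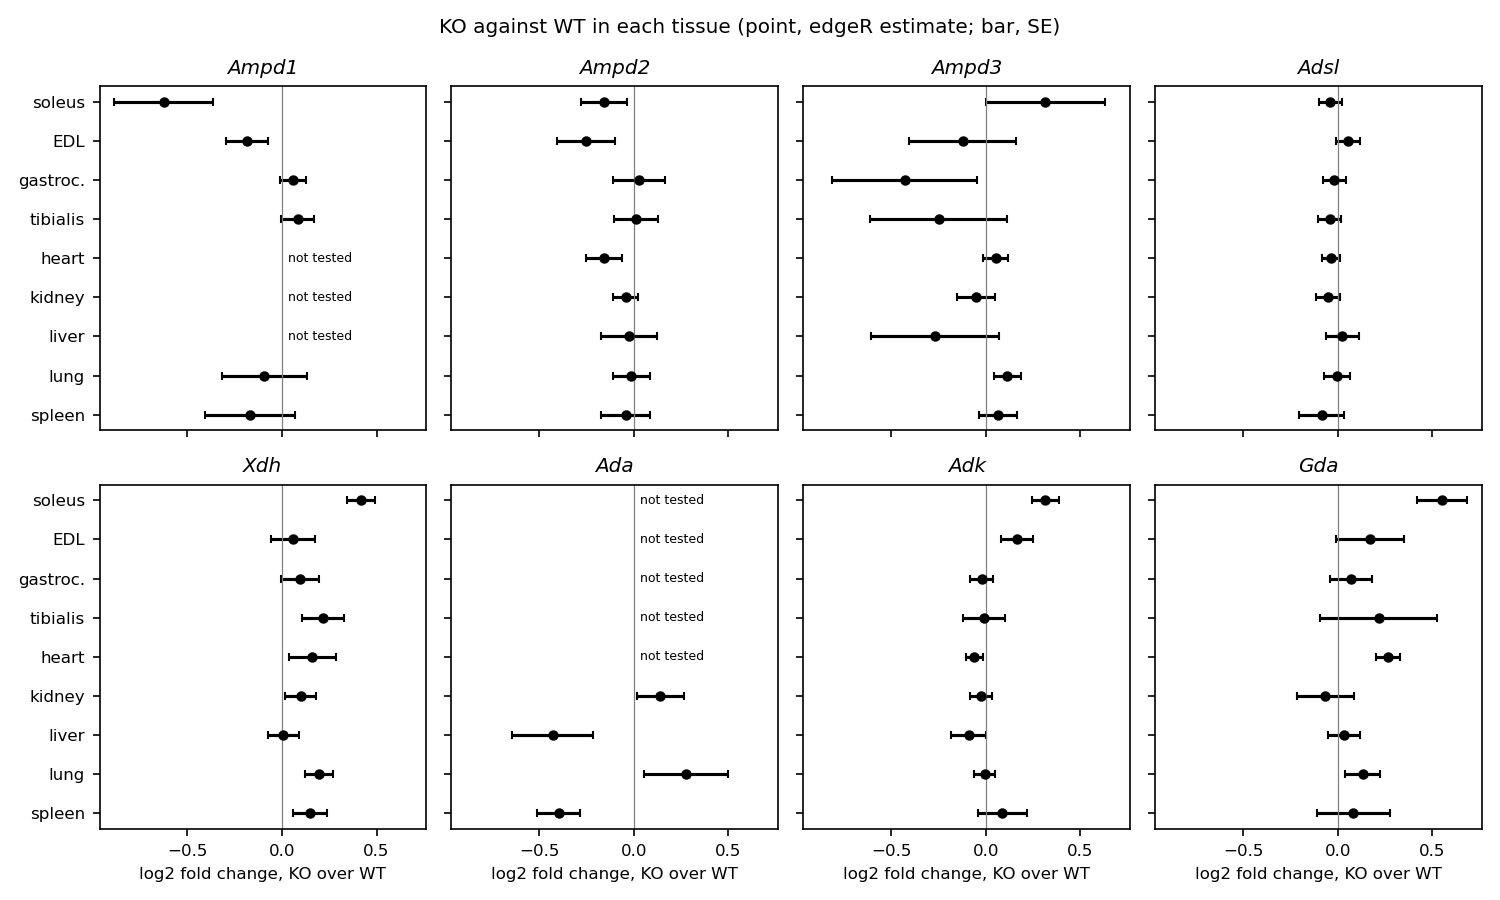
Log2 fold change of KO over WT (x axis) for each gene in each tissue (rows), with points for the edgeR estimate and bars for its SE; "not tested" marks a gene below the filter on low counts in that tissue. Soleus holds the largest positive values of Xdh (0.42), Adk (0.31) and Gda (0.55) and the largest negative value of Ampd1 (-0.62), and Adsl lies between -0.09 and 0.05 in all tissues.

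For Ampd1, Xdh, Adk and Gda the log2 fold change farthest from 0 was that of soleus, and Xdh, Adk and Gda had been chosen by such values. Ampd2 was farthest from 0 in EDL (-0.25), Ampd3 in gastrocnemius (-0.43) and Adsl in spleen (-0.09), and Ada was not tested in soleus. Xdh held 11.9, 14.1, 14.7, 15.3 and 16.0 RPKM in KO and 9.56, 9.88, 10.3, 10.3 and 11.7 RPKM in WT soleus. Every KO library lay above every WT library, as for 254 of 12924 genes in soleus (1.97%), and the log2 fold change was 0.42 (SE 0.07; 0.41 without KO mouse 3805666). Adk held 39.6, 41.0, 42.2, 43.2 and 50.1 RPKM in KO and 28.7, 33.2, 33.5, 35.7 and 36.9 RPKM in WT soleus. The groups again did not overlap, and the log2 fold change was 0.31 (SE 0.07; 0.27 without that mouse). Gda held 2.69, 2.87, 3.38, 3.78 and 4.19 RPKM in KO and 1.88, 1.99, 2.02, 2.48 and 2.72 RPKM in WT soleus. The lowest KO library was just below the highest WT library, and the log2 fold change was 0.55 (SE 0.13; 0.47 without that mouse). In the other 8 tissues no member's groups were apart, beside 0.0864 to 0.992% of all genes with every KO library on the same side.

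Ampd1 went the other way in soleus, with 81.1, 147, 197, 200 and 201 RPKM in KO and 167, 209, 265, 293 and 305 RPKM in WT mice. The groups overlapped at the lowest WT library, and the lowest KO value was that of mouse 3805666. The log2 fold change of -0.62 (SE 0.26) did not pass the threshold (edgeR adjusted p = 0.265), and it was -0.45 without that mouse (edgeR adjusted p = 0.397). Ampd3 held 11.9, 13.9, 15.4, 15.9 and 29.0 RPKM in KO and 8.38, 9.12, 9.84, 16.8 and 22.6 RPKM in WT soleus. The groups overlapped widely, and the log2 fold change of 0.31 (SE 0.31, edgeR adjusted p = 0.615) was 0.07 without that mouse, whose library was the highest of the 10. Ampd2 (-0.16, SE 0.12, edgeR adjusted p = 0.494) and Adsl (-0.04, SE 0.06, edgeR adjusted p = 0.771) did not pass the threshold either. Without that mouse they were at -0.16 (edgeR adjusted p = 0.667) and -0.04 (edgeR adjusted p = 0.856), Ampd3 had an edgeR adjusted p of 0.955, and edgeR again called 1 gene.

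Cell type markers also differed in mean between KO and WT soleus, with sums that overlapped between the genotypes. All 10 slow fibre markers had a higher mean in KO soleus, with sums of 6340 to 18990 RPKM in KO and 3962 to 7283 RPKM in WT mice. Of the 11 fast fibre markers 2 had a higher mean in KO soleus, with sums of 24040 to 47350 RPKM in KO and 41500 to 59580 RPKM in WT mice. The means were higher in KO soleus for 8 of 8 endothelial (65.4 to 140.6 in KO, 52.1 to 105.8 RPKM in WT), 8 of 8 macrophage (48.5 to 125.5 in KO, 36.9 to 74.0 RPKM in WT) and 8 of 8 adipocyte markers (830.4 to 1844 in KO, 583.1 to 1231 RPKM in WT). They were also higher for 5 of 7 erythroid and 5 of 8 lymphocyte markers. None of the fibre, endothelial, macrophage or adipocyte markers was at 0 in soleus, while the lymphocyte marker Cd3e in KO mice stayed under 3 reads in every library. Without KO mouse 3805666 the same counts of slow fibre, fast fibre, endothelial, macrophage, erythroid and lymphocyte markers were higher in KO soleus, and 6 of 8 adipocyte markers were. The KO sums then ran to 11960 RPKM for slow fibre and 1275 RPKM for adipocyte markers, and from 38270 RPKM for fast fibre markers. The part of these cell types in the levels of Xdh, Adk, Gda and Ampd1 was not tested.

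Whether soleus differed from the 3 fast muscles in its genotype difference was tested over all 40 muscle libraries. Without a term for the mouse, 0 of 13534 genes were called by edgeR (2225 at an unadjusted p under 0.05; DESeq2 was not run for this test). The count was 337 without KO mouse 3793546, 384 without WT mouse 3793543, 1 without WT mouse 3805657 and 0 without each of the other 7 mice. In the fit of all mice the KO-WT difference of Ampd1 was lower in soleus by -0.60 on the log2 scale (SE 0.19, adjusted p = 0.120). With the mouse as a replicate block, which takes account of muscles from the same animal, 591 genes were called and Ampd1 was the only member among them, at -0.62 (SE 0.17, edgeR adjusted p = 0.0379). Without KO mouse 3805666 that call was lost, at -0.43 with the block (SE 0.12, edgeR adjusted p = 0.111) and -0.44 without it (edgeR adjusted p = 0.405), and 0 genes were called in both fits. Ampd1 in the fast muscles averaged 323.8 RPKM in KO and 363.7 RPKM in WT EDL, 361.2 RPKM in KO and 351.4 RPKM in WT gastrocnemius, and 257.2 RPKM in KO and 245.6 RPKM in WT tibialis. For Ampd3 (0.59, SE 0.40, edgeR adjusted p = 0.472), Ampd2 (-0.08) and Adsl (-0.03) the difference between muscles was not called, and without KO mouse 3805666 the values were 0.34 for Ampd3 (edgeR adjusted p = 0.855), -0.04 for Ampd2 and -0.04 for Adsl. As a description, the values were 0.30 for Xdh (SE 0.13; 0.29 without that mouse), 0.28 for Adk (SE 0.10; 0.18 without it) and 0.41 for Gda (SE 0.25; 0.41 without it).

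Ampd3 varied widely between mice of 1 genotype in the muscles. WT mice 3793543 and 3805657 had the highest Ampd3 of the WT group in soleus (22.6 and 16.8 RPKM), EDL (10.1 and 9.95 RPKM) and gastrocnemius (6.57 and 8.12 RPKM). The other 3 WT mice had 8.38 to 9.84 RPKM in soleus, 3.96 to 5.80 RPKM in EDL and 2.24 to 2.93 RPKM in gastrocnemius. The same mice were high in all 3 muscles, so these muscles do not repeat each other independently. In tibialis mouse 3793543 was again highest at 10.1 RPKM, but mouse 3793553, at 8.90 RPKM, lay above mouse 3805657 at 7.76 RPKM. Heart did not follow, with 7.87 and 7.17 RPKM in the first 2 mice and 7.08 to 8.62 RPKM in the other 3. Gastrocnemius had the lowest genotype value of Ampd3, at a log2 fold change of -0.43 (SE 0.38), which was not called.

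**Figure D5:**
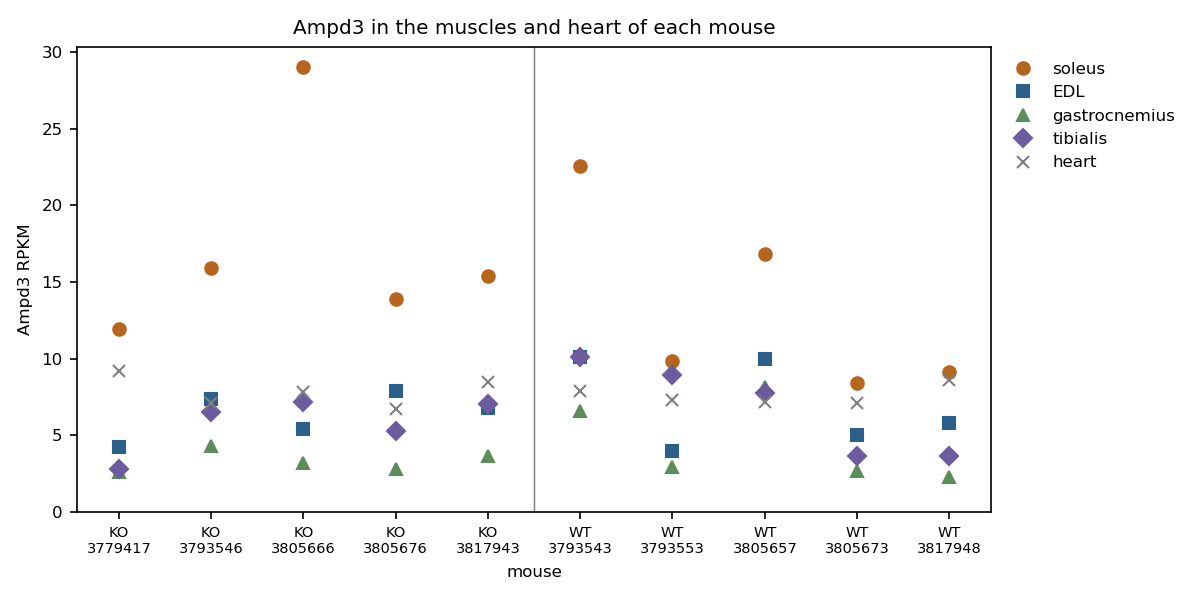
Ampd3 RPKM in the 4 muscles and the heart of each mouse, KO mice left of the line and WT mice right of it; symbols stand for tissues. WT mice 3793543 and 3805657 are high in soleus (22.6 and 16.8 RPKM), EDL and gastrocnemius together, and the soleus of KO mouse 3805666 is the highest point (29.0 RPKM).

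Outside soleus the values farthest from 0 were those of Ada in liver and spleen and of Ampd3 in gastrocnemius. Ada held 5.50, 6.07, 6.30, 6.41 and 6.64 RPKM in KO and 6.60, 7.45, 7.98 and 9.90 RPKM in WT spleen. The highest KO library overlapped the lowest WT library, and the log2 fold change was -0.40 (SE 0.11). Lymphocyte markers summed to 1628 to 1925 RPKM in KO and 1677 to 1798 RPKM in WT spleen, with 5 of 8 higher on average in KO mice. Higher in KO spleen on average were also 7 of 8 macrophage (1454 to 1640 RPKM in KO, 1340 to 1683 RPKM in WT), 7 of 8 endothelial (153.3 to 173.3 RPKM in KO, 137.5 to 166.1 RPKM in WT) and 7 of 8 adipocyte markers (22.0 to 182.1 RPKM in KO, 20.0 to 30.5 RPKM in WT). So were 4 of 7 erythroid markers (16070 to 45380 RPKM in KO, 13040 to 51270 RPKM in WT). The part of these cell types in the Ada level was not tested. In liver Ada held 0.540, 0.561, 0.977, 1.0 and 1.06 RPKM in KO and 0.834, 1.04, 1.09, 1.14 and 1.35 RPKM in WT mice, a log2 fold change of -0.43 (SE 0.21). In KO liver 2 of 5 libraries lay below all WT libraries. Of 7 erythroid markers 5 had a higher mean in KO liver (565.3 to 1293 RPKM in KO, 454 to 843.5 RPKM in WT). So had 3 of 8 lymphocyte markers (2.53 to 3.73 RPKM in KO, 2.62 to 3.65 RPKM in WT). For macrophage, endothelial and adipocyte markers it was 4 of 8 each. The part of these cell types in the Ada level of liver was not tested. Lung and kidney had Ada at 0.28 (SE 0.22) and 0.14 (SE 0.13).

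Xdh had a positive log2 fold change in all 9 tissues, from 0.01 (SE 0.08) in liver to 0.42 in soleus. In lung, where it is most abundant, it held 111, 114, 121, 124 and 126 RPKM in KO and 92.4, 99.1, 101, 106 and 121 RPKM in WT mice, a log2 fold change of 0.20 (SE 0.07). Only the highest WT library reached the KO range there. Of 8 endothelial markers 7 had a higher mean in KO lung, with sums of 882.5 to 1136 RPKM in KO and 815 to 1026 RPKM in WT mice. The 8 adipocyte markers all had a higher mean there, with sums of 181.5 to 237 RPKM in KO and 172.5 to 211 RPKM in WT mice, against 6 of 10 slow fibre, 4 of 11 fast fibre, 3 of 7 erythroid, 3 of 8 macrophage and 2 of 8 lymphocyte markers. The part of these cell types in the Xdh level was not tested. The 9 tissues came from the same mice, so their common sign is not 9 separate observations. Gda in heart held 3.86, 4.22, 4.37, 4.60 and 4.71 RPKM in KO and 3.39, 3.61, 3.63, 3.65 and 3.88 RPKM in WT mice, with a log2 fold change of 0.27 (SE 0.06) and an overlap of 1 library from each side. Markers with a higher mean in KO heart were 0 of 8 for macrophages (73.7 to 100.2 RPKM in KO, 83.6 to 100.6 RPKM in WT), 6 of 7 for erythroid cells (2951 to 6266 RPKM in KO, 2519 to 7051 RPKM in WT) and 8 of 11 for fast fibres (9.29 to 11.4 RPKM in KO, 8.10 to 10.4 RPKM in WT). They were 5 of 8 for adipocytes, 3 of 8 for lymphocytes, 3 of 10 for slow fibres and 2 of 8 for endothelial cells. Their part in the Gda value was not tested. Adk lay between -0.09 and 0.16 in the tissues other than soleus, and Adsl had SEs of 0.05 to 0.12 with values from -0.09 to 0.05. None of the genes of the pathway lists beside the 8 members was called between genotypes in any tissue, by edgeR adjusted over all genes.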

How the data were processed

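The 88 libraries were grouped by genotype and tissue from the labels. Per the labels' protocols, polyadenylated RNA was extracted with MagMax beads and made into libraries with a stranded KAPA kit. Reads were placed on mm10, per the submitters' processing notes; the aligner, the counter and the use of strand in counting: not given in the sources used here. Next to RPKM values, the authors deposited expected counts per gene (85.54% of values whole), which were rounded for the tests. RPKM was recomputed here from the deposited counts at the annotated exon length. The planned use of raw counts and deposited per-length values was changed in that way after the files were read. The 22 rows that name no gene (at most 0.0323% of counts) were left out. No 2 replicates among 172 pairs held identical values.

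Genotypes were compared within each tissue, and tissues over the WT libraries, with edgeR 4.0.16 in R 4.3.3 (TMM composition factors, a minimum count of 10 and total of 15, robust quasi-likelihood test, Benjamini-Hochberg adjustment over all genes tested, threshold 0.05). The code was tested on simulated data. DESeq2 1.42.0, other scalings, no filter, age as a covariate, the mouse as a block and leaving out each mouse were the alternatives. DESeq2 in soleus, the block and the contrasts in KO mice were also run without KO mouse 3805666, a choice made after seeing the data. Muscles of 1 WT mouse deviated together from their group means (mean r 0.207 over 30 pairs of muscles, 25 above 0.1). Over all 164 pairs of WT tissues the mean r was 0.0701, with 47 above 0.1. That tissues share an animal is given by the labels.

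The 8 members, the pathway lists and the markers were chosen with earlier results of these data known. Beside the members, up to 2 higher and 2 lower pathway genes with the largest fold at 1 CPM or more in each tissue contrast could be named, and the 3 genes with the highest r to each member, of which 1 is not reported here. Depth limits low levels: 3 reads is taken as the limit that a count of 0 allows, which covers counting error only.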

Additional observations from a re-analysis of the deposited data

Results flagged for a closer look

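In 5 of 135 groups of 4 or 5 libraries, 1 library lay far from the others of its group, where chance gives about 5% of groups. Ampd1 in the WT lung of mouse 3805657 was 0.206 RPKM (4 reads), against 0.370 to 0.376 RPKM in the other WT lungs. Ampd2 in the WT spleen of mouse 3805673 was 6.16 RPKM, against 10.8 to 11.5 RPKM in the others. Ampd3 in the KO soleus of mouse 3805666, the library with little Myh4, was 29.0 RPKM, against 11.9 to 15.9 RPKM in the others. Adsl in the WT heart of mouse 3817948 was 10.9 RPKM, against 11.4 to 11.6 RPKM in the others. Gda in the KO lung of mouse 3817943 was 12.6 RPKM, against 8.85 to 9.61 RPKM in the others.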

How the results depend on the processing

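Of the values recomputed, 854 of 888 between genotypes, 97 of 98 for the difference between muscles and 572 of 616 between tissues held. Between tissues, and for Ampd1, Ampd2, Ampd3 and Adsl throughout, holding meant the same direction and side of the threshold. For the genotype and muscle values of Xdh, Ada, Adk and Gda it meant a move smaller than the SE of the main fit. With DESeq2 the genotype called 165 genes in soleus (110 higher) and 111 without KO mouse 3805666 (59 higher). It called 4 in EDL (3 higher), 2 in gastrocnemius and 4 in kidney (4 higher), and edgeR with no filter called 1 gene in kidney (1 higher). Members that were chosen by such p-values are not counted here. Leaving out each mouse gave 1 to 2 genes in soleus (0 to 1 higher), EDL (0 to 1 higher) and gastrocnemius. With the mouse as a replicate block, the difference between muscles called 591 genes (183 higher, 1 member, Ampd1) and 0 without KO mouse 3805666, and without the block, leaving out each mouse gave 0 to 384 genes (0 to 179 higher): 337 without KO mouse 3793546 and 384 without WT mouse 3793543. Soleus against the fast muscles gave 1860 to 3018 genes and 2 to 4 members when each WT mouse was left out, and 7348 genes (3838 higher) in KO mice, 5668 (2935 higher) without KO mouse 3805666. Scaling to library totals gave 3379 genes higher in the muscles, 2994 in soleus, 13164 in lung and 10939 in spleen. It turned Ampd3 to 0.0557 in heart, 0.0670 in kidney, 0.89 in lung and 0.65 in spleen, and Adk to 0.44 in lung. In soleus against the fast muscles, Ada was -0.0690 and Gda 0.21 in KO mice (-0.26 and 0.21 without mouse 3805666), and leaving out each WT mouse gave -0.0273 to 0.22 for Ada and -0.28 to 0.0272 for Gda. With CPM, 3 of 9 tissues kept their rank for Ampd1, Xdh and Adk, 5 for Ampd2 and Ada, 2 for Ampd3 and Gda and 4 for Adsl; with deposited RPKM 4 kept it for Adsl. The cause was not tested.

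Uncalled genotype values changed sign when a mouse was left out. Ampd3 ran from -0.26 to 0.0385 in EDL, -0.00398 to 0.0911 in heart, -0.13 to 0.0387 in kidney and -0.0104 to 0.11 in spleen. Ampd2 ran from -0.0511 to 0.0827 in gastrocnemius, -0.0131 to 0.0576 in tibialis, -0.0882 to 0.00099 in kidney, -0.16 to 0.0482 in liver, -0.10 to 0.0662 in lung and -0.18 to 0.0072 in spleen. Adsl ran from -0.0497 to 0.0257 in gastrocnemius, -0.0043 to 0.0672 in liver and -0.0472 to 0.0346 in lung, and Ampd1 from -0.18 to 0.0159 in lung.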
